A study of Mus musculus with 6 samples.

Results

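Endothelial and stromal cells were examined in 1 section of bone marrow from wild-type (C57BL/6) mice aged 89 weeks, in which transcripts were counted in place by the Xenium method. The endothelial cells were selected on 2 or more transcript counts over Kdr, Tie1, Clec14a, Cdh5 and Tek. Emcn, which the rule names too, was not on the panel. The stromal cells were selected on 2 or more counts over Pdgfra, Pdgfrb, Cxcl12, Lepr and Lum together with no count of an endothelial gene. Of 140707 cells with at least 5 detected genes, 1047 were endothelial (0.744%, exact binomial 95% interval 0.700 to 0.790) and 12454 were stromal (8.85%, 8.70 to 9.001), 13501 in all. The other 127206 cells are called remaining cells. No gated endothelial cell and 8 gated stromal cells fell to the filter on detected genes, since 1047 and 12462 cells met the rule before it.

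Vessels in the marrow are mostly wide, thin-walled sinusoids, fed by a few small arteries, and their endothelium lets blood cells pass into the circulation. Around the sinusoids lie reticular stromal cells that make large amounts of the chemokine CXCL12 and of stem cell factor, the product of Kitl, and that express the leptin receptor. Endothelium and reticular stroma together are known as a niche for blood stem cells and for lymphoid and erythroid precursors. Stromal cells of the marrow also give rise to bone-forming cells and to marrow fat cells.

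The study mapped the surroundings of developing red cells in blood-forming organs. The series held 6 sections of 5 µm and 521938 segmented cells, with 1 section per condition, from fetal liver, marrow and spleen. For the aged marrow, leg bones were fixed in paraformaldehyde, the femur was sliced, and the marrow was separated from the bone before it was embedded in paraffin. Cells lining the bone may therefore have stayed behind. The labels do not give the number of mice behind the section, so 1 section stands for the condition and nothing could be tested. All intervals are 95% intervals that cover counting error only. Cells of 1 section share their animal or animals, their slide and their run and are not replicates.

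The section held 143810 segmented cells and 13053261 gene transcripts over 5050 genes, with a median of 60 counts per cell. Of the transcripts of high quality, 94.92% had been assigned to cells. None of the control probes without a target reached more than 18 counts over the section. Between 0 and 4 cell names were shared with each of the other sections. Endothelial cells had a median of 151 counts, stromal cells of 122 and remaining cells of 57. Because the gates need counts, they take deeper cells, and levels are therefore given as CPM, a gene's counts per 1000000 counts of the group over all genes that served in no gate.

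The promoters of Kdr, which encodes the main receptor for vascular endothelial growth factor, and of Cxcl12 are shown because these genes carried much of each gate. ETS family factors, several of which guide endothelial genes, bind DNA around the core GGAA. The 250 bases before the transcription start are given 5′ to 3′ on the strand of the gene, from RefSeq on build GRCm38.p6, with GGAA and its reverse complement TTCC in capitals.
Kdr, chr5:75978456-75978705, minus strand: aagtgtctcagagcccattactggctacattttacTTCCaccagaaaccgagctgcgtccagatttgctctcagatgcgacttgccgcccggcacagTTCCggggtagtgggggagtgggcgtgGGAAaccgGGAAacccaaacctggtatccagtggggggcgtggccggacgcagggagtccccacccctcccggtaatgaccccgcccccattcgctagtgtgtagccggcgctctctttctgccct
Cxcl12, chr6:117168285-117168534, plus strand: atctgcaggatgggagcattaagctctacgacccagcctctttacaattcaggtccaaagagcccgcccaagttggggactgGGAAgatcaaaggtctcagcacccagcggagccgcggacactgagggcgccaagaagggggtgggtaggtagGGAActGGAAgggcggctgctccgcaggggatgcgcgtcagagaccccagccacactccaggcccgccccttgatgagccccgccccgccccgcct
The Kdr window held 4 cores and the Cxcl12 window 3, counted on both strands. The core is short, and 93.45% of 32851 promoter windows of this length held at least 1, with a median of 3, so that 33.38% held 4 or more and 54.66% held 3 or more. The 8 gate genes with an entry had 9 windows with between 2 and 7 cores each. A match of letters is a description of the sequence and not a binding site.

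The gate genes were the readout that chose the cells, so their levels describe the choice. Cdh5, the cadherin of endothelial junctions, was counted in 63.2% of endothelial cells and Kdr in 50.2%. The receptor Tek was counted in 31.2%, the surface lectin Clec14a in 28.3% and the receptor Tie1 in 21.6%. A single gate gene gave 250 of the 1047 endothelial cells their counts, 643 had counts of 2 such genes, 120 of 3, 29 of 4 and 5 of all 5. Of all Cdh5 counts in the section, 46.3% lay inside the endothelial gate, and of Kdr counts 47.7%, and the others lay in cells that held only 1 endothelial count. The stromal gate rested mainly on Cxcl12, counted in 98.7% of stromal cells. Lepr was counted in 19.2%, Pdgfrb in 11.4%, Pdgfra in 3.88% and Lum, a matrix proteoglycan, in 0.964%. For 8727 stromal cells, 70.1% of them, the gate was met by Cxcl12 alone.

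Cxcl12 was not limited to the stromal gate. Its level was 18650 CPM in stromal cells (18458 to 18844), 8853 in endothelial cells (8442 to 9280) and 2172 in remaining cells (2144 to 2200). It was counted in 16.6% of remaining cells. Once each cell was thinned to 50 counts, which left out 61 endothelial, 1689 stromal and 56438 remaining cells, Cxcl12 was counted in 66.3% of stromal, 31.7% of endothelial and 10.5% of remaining cells. Of the endothelial cells, 646 (61.7%) held at least 1 stromal count and 408 (39.0%) held 2 or more. A further 960 cells met the stromal threshold but held exactly 1 endothelial count, and they stand among the remaining cells.

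Cells just inside and just outside the thresholds formed a gradient in genes that the gates did not use. The list of 16 endothelial junction and surface genes stood at 1970 CPM in cells with no endothelial gate count, at 8607 in the 3227 cells with 1, at 12960 in the 710 cells with 2 and at 20829 in the 136 cells with 4 or more. The median depth of these cells climbed from 61 to 117, 139 and 214 counts. The list of 19 genes of Cxcl12-abundant reticular stroma stood at 1725 CPM in cells with no stromal count, 3084 in the 20892 cells with 1, 5305 in the 6359 cells with 2 and 16415 in the 3490 cells with 4 or more. The step across each threshold was thus smaller than the spread inside the gate, and the gates mark a range of counts.

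**Figure D1:**
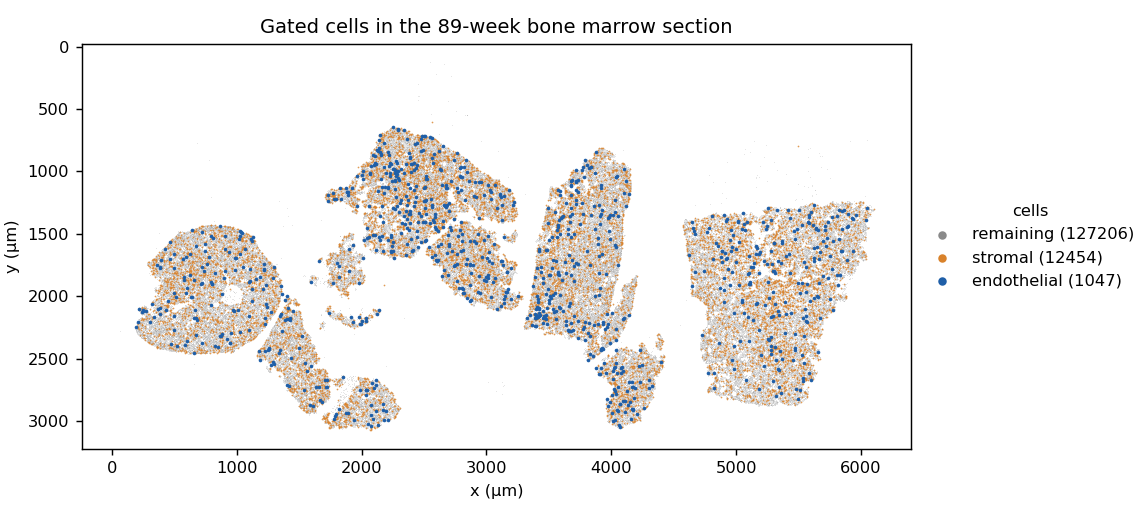
Positions of the 1047 endothelial and 12454 stromal cells in the 89-week marrow section, over the remaining cells, with both axes in µm. Both kinds of cell lie scattered through every large piece of tissue.

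Both kinds of gated cell were larger than the remaining cells, and endothelial nuclei were longer. The median area of a segmented cell was 45.4 µm² for endothelial, 38.6 for stromal and 27.9 for remaining cells, and the nucleus covered 23.0, 21.0 and 16.9 µm². The ratio of the long to the short axis of the nucleus had a median of 1.59 in endothelial cells, 1.35 in stromal cells and 1.31 in remaining cells. A ratio above 2 was found in 26.1% of endothelial, 9.06% of stromal and 4.64% of remaining nuclei. Shape played no part in the gates, but depth moves with area. Among cells of 50 to 150 counts, 459 endothelial, 5861 stromal and 51214 remaining, the median nuclear ratio was 1.58, 1.35 and 1.32, while the nuclear areas came to 18.6, 19.1 and 18.8 µm². Depth was narrowed but not matched by this range, with medians of 101, 94 and 82 counts, and the cell areas were 36.6, 33.6 and 31.2 µm².

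**Figure D2:**
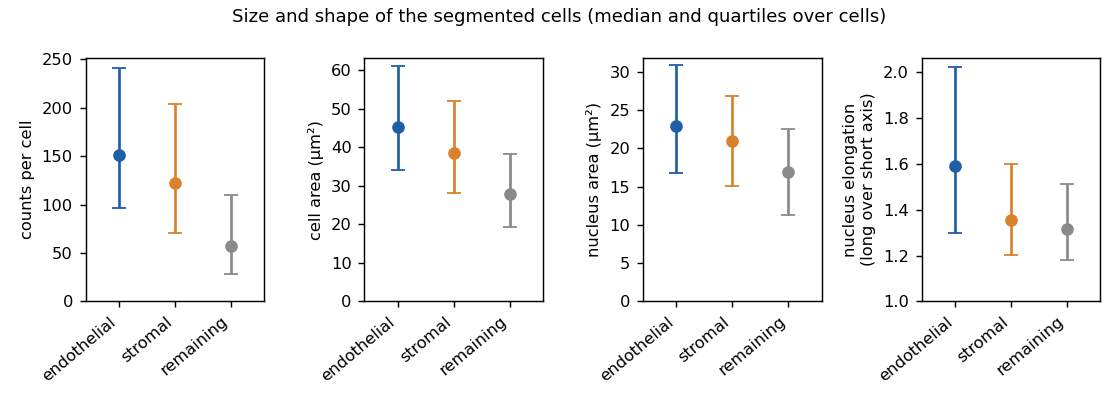
Counts per cell, cell area and nucleus area in µm² and nuclear elongation (long over short axis) of endothelial, stromal and remaining cells, with points for medians over cells and bars for quartiles. The elongation axis starts at 1, and endothelial nuclei have the highest median there, 1.59 against 1.35 and 1.31.

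The label of endothelium was checked on genes outside the gate. Of 16 junction and surface genes of endothelium measured, 14 were at least 2-fold higher in endothelial than in remaining cells, with a median fold of 8.57. Vwf, which megakaryocytes make too, was 1 of the 14 and stood at 0.768-fold when cells with 10 or more megakaryocyte counts were left out of all groups. Over all 3894 genes with at least 50 counts in both groups together, 20.3% were as high and the median fold was 1.13. Plvap, which forms the diaphragms of endothelial pores, stood at 3111 CPM (610 counts) against 162 in remaining cells, a 19.2-fold difference (17.5 to 21.1). Egfl7, a matrix protein of vessel walls, was 17.9-fold higher (16.3 to 19.8) and the adhesion molecule Mcam 18.6-fold (14.9 to 23.1). Thrombomodulin, encoded by Thbd, was 17.3-fold and endoglin, encoded by Eng, 11.3-fold higher. Pecam1, which platelets and leukocytes carry too, was 5.18-fold higher (4.57 to 5.85). Cd34 and Ace did not reach 2-fold, at 1.38 and 1.52. Plvap was counted in 39.9% of endothelial, 3.50% of stromal and 1.16% of remaining cells, and after thinning in 17.5%, 1.46% and 0.837%. Remaining cells include those with 1 endothelial count, so the last share is not that of other cell types alone.

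Of the 15 genes with the largest fold among those whose interval lay wholly above 2, Nos3, the endothelial nitric oxide synthase, came first at 24.3-fold (13.1 to 43.2) on 18 counts. The apelin receptor gene Aplnr followed at 23.6-fold (18.9 to 29.4), with Notch4 at 23.3-fold and Ephb4, an ephrin receptor of veins, at 22.3-fold. Sele, which encodes the selectin that captures leukocytes and stem cells in marrow vessels, reached 21.0-fold (17.3 to 25.4), with 785 CPM against 37.4. Npr1, a natriuretic peptide receptor, was 20.8-fold higher, the Notch ligand gene Dll4 20.5-fold and the transcription factor gene Sox18 20.4-fold. Kcnj8 reached 23.0-fold and Kcnq1 22.9-fold, and both encode potassium channel subunits. Arhgef15, Ldb2, Hoxb5, Sema3a and Pald1 completed the set, between 20.2 and 21.8-fold. In all, the interval lay wholly above 2 for 384 genes. Of the 790 genes called higher, 26 had under 50 counts in remaining cells, Nos3 among them, and were measured only through their endothelial counts.

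**Figure D3:**
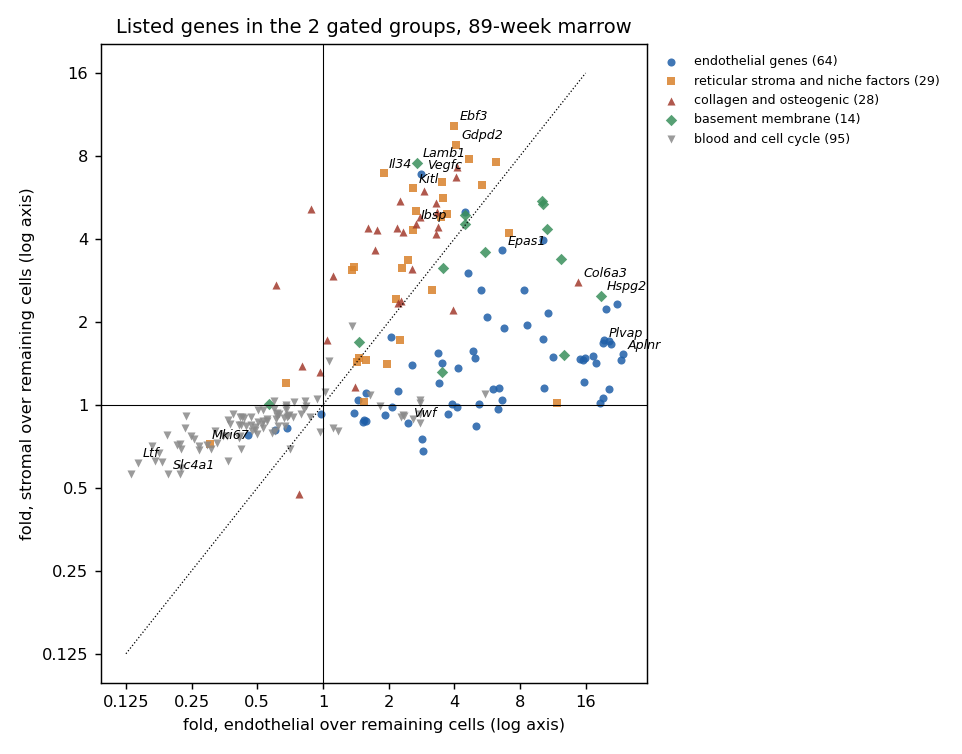
Fold over remaining cells, in endothelial cells on the horizontal and in stromal cells on the vertical log axis, with a point per gene and colors by group of lists. Shown are measured genes of the endothelial, reticular, niche factor, collagen, osteogenic, basement membrane, cell cycle and blood lists, without the stem and progenitor list. Only genes with counts in both gated groups are drawn. Plvap lies at 19.2-fold on the endothelial axis, Ebf3 at 10.3-fold on the stromal axis, and Ltf below 1 on both, while the dotted line marks equal folds.

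Receptors and ligands of vessel growth were high as a group. Of 17 vascular receptors and Notch genes measured, 16 were at least 2-fold higher in endothelial cells, with a median of 6.04-fold. Over all genes 20.3% were as high. Flt4, the receptor for vascular endothelial growth factor C and a marker of sinusoids in marrow, reached 19.4-fold (17.2 to 21.9) and Flt1 15.5-fold. Nrp1, Nrp2 and Plxnd1, which bind semaphorins, were 5.32, 8.36 and 8.62-fold higher, and Nrp2 stood at 1.21-fold after thinning to 50 counts per cell. The type 2 receptor Bmpr2 was 5.62-fold and Calcrl 6.04-fold higher, and Ramp3, at 1.54-fold (0.312 to 4.61) on 3 counts, was the one that did not reach 2-fold. Among transcription factors of endothelium, 10 of 17 reached 2-fold, with a median of 2.06-fold. Among those shared with blood cells, Tal1 stood at 0.683-fold, Lmo2 at 0.604-fold and Fli1 at 1.57-fold. Ets1, with 9030 counts in remaining cells, stood at 1719 CPM in endothelial and 833 in remaining cells. Nr2f2, which sets venous identity, reached 19.8-fold, and Epas1, a hypoxia-inducible factor, 6.62-fold.

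Lists of vessel types were compared next, where 20.3% of all genes were at least 2-fold higher in endothelial cells. All 6 sinusoidal genes measured were at least 2-fold higher in endothelial cells, with a median of 8.41-fold, led by Flt4 and by Gpm6a at 15.9-fold (12.9 to 19.4). Mrc1, which macrophages carry too, was 6.63-fold higher, Fcgr2b 4.10-fold and Il6st, the shared receptor of interleukin-6 cytokines, 10.2-fold. Lyve1, high in sinusoids of liver, was 2.88-fold higher on 9 counts, and at 1.75-fold among gated cells with under 10% blood transcripts. All 7 venous genes were higher, with a median of 6.34-fold, among them Selp at 6.34-fold and Ackr1, which encodes an atypical chemokine receptor, at 5.02-fold. Vwf was also on this list, at 2.45-fold with and 0.768-fold without megakaryocyte-rich cells in the 3 groups. Of 9 arterial genes, 8 were higher, with a median of 4.88-fold, but most had few counts. Sox17 had 21, Gja5 5 and Efnb2 6 counts in endothelial cells, while Jag2 reached 19.2-fold on 24 counts. Cxcr4, counted on the arterial list and abundant in blood cells, was 0.453-fold, or 0.996-fold in counts per cell and 0.522-fold in endothelial cells without stromal counts. Kcnj8, Abcc9 and Mcam were listed as mural genes, yet they stood 23.0, 18.4 and 18.6-fold higher in endothelial cells, while Myh11, Tagln, Cnn1 and Des, genes of contractile cells, had at most 2 counts each there.

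Many matrix and signaling genes were higher in endothelial than in remaining cells, and many also in stromal cells, given below. Of 14 basement membrane genes, 12 were at least 2-fold higher, with a median of 5.01-fold. Over all genes 20.3% were as high and 9.24% as low. Hspg2, which encodes perlecan, reached 18.9-fold (16.2 to 21.9), Lama5, a laminin chain of vessels, 12.8-fold and nidogen 1, Nid1, 12.4-fold. Col4a1 and Col4a2, the main chains of collagen IV, were 10.1 and 10.6-fold higher. Col6a3 reached 14.8-fold, from the list of fibroblast genes. Fibronectin, Fn1, which monocytes make too, was 0.568-fold. Of 25 factors of the hematopoietic niche, 15 were higher and 1 was lower, with a median of 2.59-fold. Sele led them at 21.0-fold, followed by genes of Notch ligands, with Dll4 at 20.5-fold, Jag2 at 19.2-fold, Dll1 at 11.9-fold and Jag1 at 10.2-fold. Kitl was 2.59-fold (2.06 to 3.22) and Vcam1 3.37-fold higher.

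The stromal genes in the endothelial cells went along with their stromal gate counts, which the endothelial gate did not use. In the 401 endothelial cells with no such count, 6 of 18 reticular genes measured were at least 2-fold above remaining cells, with a median of 1.65-fold, where 20.1% of all genes were as high. In the 238 with 1 the count was 10 of 18, against 21.7% of all genes, and in the 408 with 2 or more it was 17 of 18, with a median of 5.07-fold, against 21.5%. Kitl stood at 1.17-fold (0.606 to 2.06) in the former and at 4.12-fold (3.15 to 5.30) in the latter, Cxcl14 at 0.983 and 5.81-fold and Ebf3 at 1.12 and 6.34-fold. Vcam1 and the receptor gene Tgfbr3 moved little, at 3.38 and 3.40-fold and at 6.18 and 7.92-fold. Of 16 junction genes, 14, 13 and 14 were at least 2-fold higher in the sets with no, 1 and 2 or more counts, and Plvap stood at 21.6-fold in the first and 18.3-fold in the last. Of 14 basement membrane genes, 8 were called without stromal counts and 11 in each of the other sets, with medians of 3.04, 6.63 and 7.26-fold. Without stromal counts Hspg2 stood at 19.2-fold and Col4a1 at 8.53-fold. The first and last sets had median depths of 116 and 194.5 counts, and the part of transcripts from stromal neighbors in these values was not tested.

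Fewer genes were lower. At least 2-fold lower in endothelial than in remaining cells were 360 genes, 9.24% of those measured, and the interval lay wholly below 0.5 for 82. Of the 360, 304 had under 50 counts in endothelial cells and were measured only through their counts in remaining cells. In counts per cell, a scale that keeps the greater depth of endothelial cells, 60 genes were as low. The 10 lowest of the 82 were led by Iqgap3, at 0.0774-fold (0.00196 to 0.433) on 1 count, and Gpnmb, at 0.0817-fold (0.0168 to 0.239) on 3 counts. Granulocyte genes filled most other places, among them Ffar2, Fcnb, Mmp25, Cd177, the basophil protease gene Prss34 and Ltf, which encodes lactoferrin and was 0.141-fold (0.129 to 0.155). Epx, the peroxidase of eosinophils, had no count in endothelial cells against 1487 in remaining cells. With a floor of 3 counts over the group Epx came to 8.97-fold lower, while its exact interval began at 7.28-fold lower. Il18rap was the other, at 0.115-fold. Of 10 cell cycle genes, 7 were at least 2-fold lower, with a median of 0.393-fold and Mki67 at 0.293-fold (0.259 to 0.331), or 0.644-fold in counts per cell. Of 19 genes of senescence and inflammation, 2 were higher and 2 lower, with a median of 1.28-fold. Over all genes 20.3% were higher and 9.24% lower. Cdkn2a, the locus of the inhibitor p16, had 4 counts in endothelial cells and 26 in stromal cells, and Cdkn1a had 8 and 52. These came to 20.4 and 13.5 CPM for Cdkn2a and to 40.8 and 26.9 for Cdkn1a. In remaining cells they stood at 15.8 and 22.6 CPM.

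The stromal label was checked in the same way on genes outside its gate. Of 19 genes of Cxcl12-abundant reticular stroma measured, 17 were at least 2-fold higher in stromal than in remaining cells, with a median of 5.07-fold. Over all 4047 genes measured, 9.76% were as high and the median was 1.06-fold. Ebf3, which keeps these cells from turning to bone, led all genes at 10.3-fold (9.36 to 11.4), with 606 CPM (1171 counts) against 58.8. Foxc1, a factor required for their identity, was 7.82-fold higher (6.74 to 9.09) and Gdpd2 8.78-fold. Adipoq, which encodes adiponectin, was 4.93-fold and Cxcl14 5.62-fold higher. Vcam1 and Angpt1 did not reach 2-fold, at 1.54 and 1.40. Ebf3 was counted in 7.31% of stromal, 3.72% of endothelial and 0.449% of remaining cells, and after thinning in 3.52%, 1.12% and 0.317%.

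Factors of the hematopoietic niche, secreted or on the cell surface, came next. Of 26 measured, 13 were at least 2-fold higher in stromal cells, with a median of 2.09-fold, where 9.76% of all genes were. Kitl, the stem cell factor gene, was 6.11-fold higher (5.73 to 6.52), at 1024 CPM against 167. Csf1 and Il34, which both signal through the macrophage receptor Csf1r, were 6.46-fold (5.90 to 7.06) and 6.92-fold higher (6.09 to 7.87). Il7, needed by B cell precursors, was 4.29-fold and Bmp4 7.62-fold higher. Ccl19 was 3.16-fold, Ccl2 3.09-fold and Tnfsf11, which drives osteoclasts, 3.37-fold higher. Flt3l, Il15, Igf1 and Tgfb1 lay between 1.02 and 1.48-fold. Thpo and Epo had 5 and 3 counts in stromal cells and too few in all to be measured.

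Among other leaders, Ccn1, a matricellular protein gene, was 9.03-fold higher (7.48 to 10.9), Notch3 8.58-fold (7.54 to 9.77) and Fst, which encodes the activin inhibitor follistatin, 8.45-fold. Fgfr2 was 7.95-fold, the mesenchymal cadherin gene Cdh11 7.75-fold, Cyp1b1 7.71-fold and Cx3cl1 7.69-fold higher. Abca8a, Grid1, Lama1 and Adcy2 completed the 15, between 7.61 and 8.14-fold. The interval lay wholly above 2 for 263 genes. Against 395 genes called higher, 44 were at least 2-fold lower, 1.09% of those measured, and for none did the interval lie wholly below 0.5. Of the 395, 32 had under 50 counts in remaining cells, Grid1 among them, and reached that minimum only with their stromal counts. Of the 44, 43 had under 50 counts in stromal cells. The count of lower genes depended on the setting, with 210 where the stromal gate left out Cxcl12 and 196 with a gate gene beside it.

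Matrix, bone and fat genes followed. Of 14 fibroblast and collagen genes, 13 were at least 2-fold higher, with a median of 4.34-fold. Over all genes 9.76% were as high and 1.09% as low. The lysyl oxidase gene Loxl1 led at 7.29-fold, Col6a1 reached 6.69-fold and Col1a2 4.25-fold, while Dpp4 stood at 1.16-fold. Of 16 osteogenic genes, 10 were higher and 1, the osteocyte gene Sost, was at 0.474-fold on 6 counts, a call that was lost at 0.509 to 0.863-fold under 3 other settings. Ibsp, bone sialoprotein, was 4.53-fold higher (4.25 to 4.83), Mmp13 4.37-fold, Dlx5 5.47-fold and Sp7, the osteoblast factor osterix, 5.12-fold. Runx2 stood at 1.73-fold. Of 8 adipocyte genes, 4 were higher and 1 was lower, and Plin1, which coats fat droplets, was 2.37-fold higher on 49 counts and 1.51-fold with a stromal gate that left out Cxcl12. Of 8 mural genes, 3 were higher, Notch3, Des at 2.83-fold and Tagln at 2.52-fold, and the smooth muscle myosin gene Myh11 had 21 counts in all 12454 cells. Basement membrane genes were higher in 11 of 15, led by Lamb1 at 7.56-fold and Col4a1 at 5.49-fold. The cartilage factor gene Sox9 was 5.78-fold higher on 35 counts, and of 4 genes of Schwann cells and nerves 1, S100b, was higher at 3.27-fold.

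**Figure D4:**
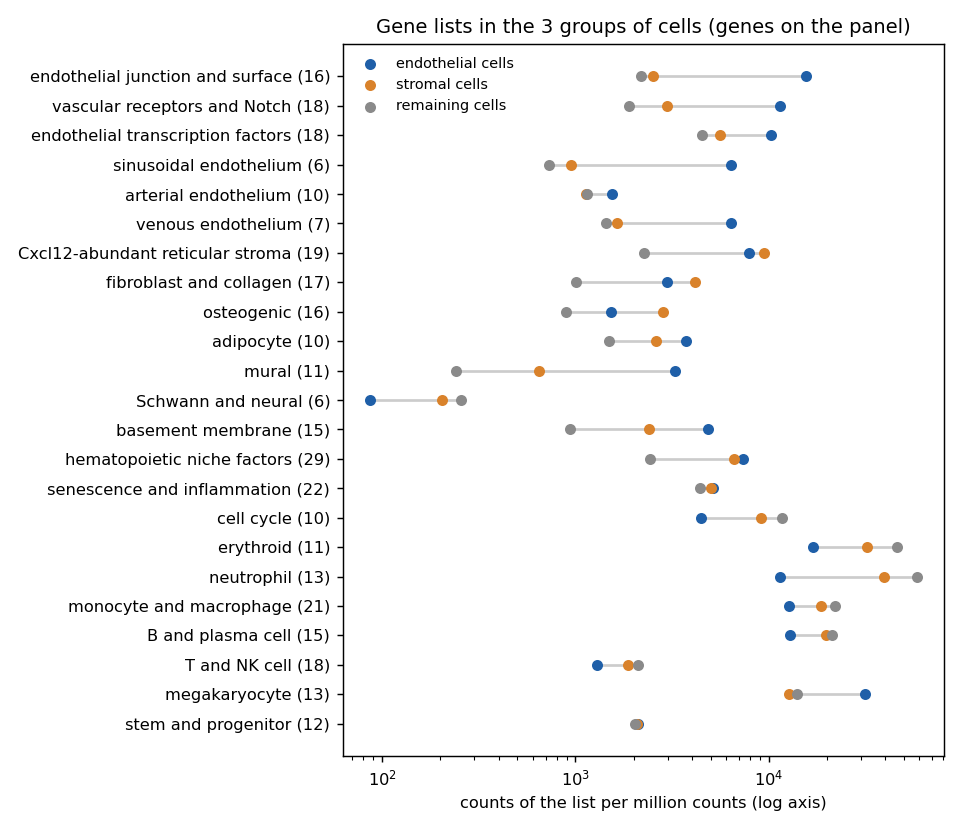
Summed level of each gene list in CPM, on a log axis, in endothelial, stromal and remaining cells, with the number of genes on the panel beside each list. Junction genes stand at 15508 in endothelial, 2525 in stromal and 2190 in remaining cells, and reticular genes at 7889, 9459 and 2249.

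Stromal cells chosen by Cxcl12 alone were less distinct than those with a count of another gate gene. In the 8727 cells with Cxcl12 alone, 17 of 19 reticular genes were at least 2-fold above remaining cells, with a median of 4.14-fold, against 18 of 19 and 8.10-fold in the other 3727 cells. Over all genes, 6.77% and 14.2% were as high. Ebf3 stood at 5.45-fold (4.80 to 6.17) in the former and 20.5-fold (18.5 to 22.9) in the latter. Gja1, the gap junction gene by which stromal cells couple, stood at 4.12 and 14.5-fold, and Notch3 at 4.49 and 17.2-fold. Among genes of bone, Bglap, osteocalcin, was 0.748-fold (0.582 to 0.9501) with Cxcl12 alone and 6.90-fold (6.05 to 7.86) otherwise, while Alpl stood at 1.42 and 4.30-fold and Runx2 at 1.34 and 2.53-fold. Col1a1 stood at 1.25 and 6.45-fold. Bglap shares much of its sequence with Bglap2, and its counts may hold some of the latter.

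Transcripts of blood cells were counted in gated cells as well. The median share of a cell's counts over 94 genes of blood lineages was 4.57% in endothelial, 9.33% in stromal and 14.9% in remaining cells, and it was under 10% in 838 endothelial and 6597 stromal cells. All 13 neutrophil genes were at least 2-fold lower in endothelial cells, where 9.24% of all genes were, with a median of 0.222-fold. In stromal cells none of the 13 was, where 1.09% of all genes were, and the median was 0.716-fold. Erythroid genes stood at a median of 0.305 and 0.694-fold, and the red cell anion exchanger gene Slc4a1 was counted in 15.95% of endothelial, 23.5% of stromal and 24.4% of remaining cells. Lymphoid lists lay below remaining cells too, with medians of 0.504 and 0.903-fold for B and plasma cells and of 0.632 and 0.901-fold for T and NK cells. In the list of monocytes and macrophages the medians were 0.681 and 0.933-fold. Of 12 genes of stem and progenitor cells, 4 were at least 2-fold higher in endothelial cells, where 20.3% of all genes were, and 1, Hoxa9 at 2.46-fold, in stromal cells, where 9.76% were. Remaining cells carried the blood genes of marrow, with the granulocyte gene Ltf counted in 32.5% of them. No list of a blood lineage was at 0 in either gate, and the part of these transcripts in the results was not tested.

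Megakaryocyte genes were the exception. Of 13 measured, 10 were at least 2-fold higher in endothelial cells, where 20.3% of all genes were. The median over the 13 was 2.45-fold, and Pf4, a platelet chemokine gene, stood at 2.80-fold (2.54 to 3.07). Over the 11 that no endothelial list holds, the summed level was 29115 CPM in endothelial, 12009 in stromal and 13146 in remaining cells. A few cells held most of these counts. The 81 endothelial cells (7.74%) with 10 or more such counts held 91.1% of them, and 722 endothelial cells had none. Without cells of that kind in any group the levels were 3184, 2927 and 3433. Vwf, made by endothelium and by megakaryocytes, stood at 2.45-fold with these cells, and leaving such cells out of all 3 groups brought it to 0.768-fold and Pf4 to 1.13-fold. Plvap, Egfl7 and Flt4 are not on the megakaryocyte list.

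The endothelial and stromal cells were then set against each other. Of 3077 genes measured, 295 (9.59%) were at least 2-fold higher in endothelial and 280 (9.1%) in stromal cells, and the median was 0.960-fold. This split moved with the setting, to 437 and 148 in counts per cell, 105 and 201 after thinning and 277 and 398 at 3 or more gate counts. The interval lay wholly above 2 for 183 genes and wholly below 0.5 for 46. Of the 280 genes, 243 had under 50 counts in endothelial cells and reached that minimum only with their stromal counts. Of the 295, 41 had under 50 counts in stromal cells. The gates exclude endothelial counts from stromal cells but not the reverse, so this contrast is not symmetric.

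Endothelial cells were then compared with stromal cells directly. Over all genes, 9.59% were at least 2-fold higher in endothelial cells and 9.1% in stromal cells. Of 16 junction and surface genes, 14 were at least 2-fold higher in endothelial cells, with a median of 5.07-fold, and so were 15 of 16 receptors and all 7 venous genes. Vwf, on the first and last of these lists, was 2.85-fold higher, and 0.996-fold without the megakaryocyte-rich cells of both groups. Of 15 endothelial transcription factors 5 were higher, and of 5 arterial genes 2 were higher and 1 lower, with medians of 1.80 and 1.53-fold. Kcnq1 led at 20.9-fold (11.4 to 39.6), followed by Mcam at 18.3-fold, Dll4 at 18.1-fold (11.4 to 29.2), Hoxb5 at 16.6-fold and Arhgef15 at 16.5-fold. Kcnq1, Dll4, Hoxb5, Notch4 and Hecw2 are among 41 of the 295 genes with under 50 counts in stromal cells, which were measured only through their endothelial counts. Notch4, Aplnr and Sema3a lay between 15.5 and 16.05-fold. Lipg, an endothelial lipase gene, stood at 2030 CPM against 149, and Sele at 785 against 62.1. Hecw2, Galnt18, Enpp6, Il13ra2 and Cxadr, between 13.3 and 13.8-fold, were the other leaders. Of 13 basement membrane genes, 4 were at least 2-fold higher and 1 lower in endothelial cells, with a median of 1.54-fold. Lama5 and Hspg2 were 8.45 and 7.59-fold higher. Of 23 niche factors, 5 were higher and 5 lower, with a median of 0.817-fold. Vcam1 was 2.19-fold higher, which came to 1.19-fold with a stromal gate that left out Cxcl12.

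The lists of stromal genes were compared in the same pair. Over all genes, 9.1% were at least 2-fold higher in stromal cells and 9.59% in endothelial cells. Of 18 reticular genes, 4 were at least 2-fold higher in stromal cells, Il34, Ebf3, Kitl (not in counts per cell, at 0.511-fold) and Gdpd2, while Vcam1 was higher in endothelial cells, and the median was 0.677-fold. Il34 stood at 0.274-fold (0.152 to 0.456) in endothelial over stromal cells and Kitl at 0.423-fold (0.337 to 0.526). These ratios depended on the endothelial cells with stromal counts. In the 401 without, Kitl stood at 197 CPM, Ebf3 at 65.5 and Cxcl14 at 213, against 1024, 606 and 1218 in stromal cells. With these 401 cells alone, 443 genes in place of 280 were higher in stromal cells and 357 in place of 295 in endothelial cells. Calls thus rose in both directions in a smaller set with fewer counts, and the part of counting error in this rise was not tested. Of 13 fibroblast and collagen genes, 4 were higher in stromal cells, including Col1a1 at 0.382-fold, and 1, Col6a3, was 5.32-fold higher in endothelial cells. Of 12 osteogenic genes, 5 were higher in stromal cells and none in endothelial cells, with Sp7 at 0.173-fold (0.0207 to 0.639) on 2 counts and Bglap at 0.222-fold on 9. The 15 lowest ratios were taken among genes whose interval lay wholly below 0.5, which left out Sp7. Beside the bone gene Bglap, they took in genes of granulocytes and dividing cells, namely Ltf, Fcnb, Cd177, Prss34, Chil1, Sgo2a and Iqgap3. Gpnmb, Slc11a2, Il18rap, Cldn1, Plppr3 and Klf5 were among them too, on 3 to 5 endothelial counts each. Alox15 had none, which came to 4.26-fold lower with the floor of 3 counts, while its exact interval began at 3.42-fold lower.

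Counts of narrower lists divided the gated cells further, as ranges and not as cell types. Of the endothelial cells, 106 (10.1%, 8.36 to 12.1) held 2 or more counts of Flt4, Gpm6a and Lyve1, which sinusoids express, and 10 (0.955%, 0.459 to 1.75) held 2 or more of 6 arterial genes. Only 2 cells met both, 933 met neither, and 239 held exactly 1 sinusoidal count. The first set had no gene whose interval lay wholly above 2 against other endothelial cells. Mpo and Ppbp, of granulocytes and platelets, were lower there at 0.329 and 0.427-fold. In the arterial set Notch4, Cav2 and S1pr1 were highest, at between 6.37 and 7.22-fold on 5 to 9 counts, so these values are loose.

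Among stromal cells, 4055 (32.6%) held 2 or more counts of the reticular list, 1573 (12.6%) of the fibroblast list, 988 (7.93%) of the adipocyte list, 777 (6.24%) of the osteogenic list and 179 (1.44%) of the mural list, and 7383 met none. The sets overlapped, with 999 cells in both the reticular and the fibroblast set and 349 in both the fibroblast and the osteogenic set. In the osteogenic set Bglap2 stood at 3464 CPM against 13.5 in other stromal cells, but it shares sequence with Bglap, one of the genes that chose the set. Postn, the gene of the matrix protein periostin, was 39.5-fold higher (23.3 to 69.7) and Col1a1 26.5-fold higher (22.8 to 31.0). The bone genes Bglap2 and Bglap led the fibroblast set, at 66.3 and 47.9-fold, before Vldlr at 14.3-fold and Mmp13, another gene of bone-forming cells, at 14.1-fold. Pitx1 and Ptx3 led the reticular set at 6.52 and 5.92-fold. In the adipocyte set Col14a1 led at 4.56-fold, and the macrophage genes Siglec1 and Cd163 came next at 3.65 and 3.62-fold. In the mural set Gzma, of cytotoxic lymphocytes, led at 9.81-fold on 13 counts, and the endothelial genes Aplnr and Nr2f2 stood at 8.69 and 6.32-fold. The same cut was met by 3.44% of remaining cells for the reticular list, 1.90% for the adipocyte list and 0.198% for the mural list, at a median of 57 counts.

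In space, stromal cells lay somewhat closer to endothelial cells than remaining cells did. An endothelial cell was centered within 15 µm of 13.4% of stromal cells (12.8 to 14.02), against 8.83% of remaining cells (8.68 to 8.99), while 24.5% of endothelial cells had another that near. The median distance to the nearest endothelial cell was 36.6 µm for stromal and 39.5 µm for remaining cells. The share of stromal cells among all other cells fell from 15.1% (14.2 to 16.1) within 10 µm of an endothelial cell to 8.72% between 20 and 40 µm and 6.99% (5.08 to 9.33) beyond 160 µm. Cells nearer to endothelium were also deeper, with a median of 78 counts within 10 µm and 52 beyond 160 µm. Within bands of depth the order held. Between 5 and 50 counts, 10.5% of stromal and 7.59% of remaining cells had an endothelial cell within 15 µm, and at 200 counts or more the shares were 15.3% and 11.5%. With Cxcl12 alone the share was 13.1%, and with another gate gene 14.03%.

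**Figure D5:**
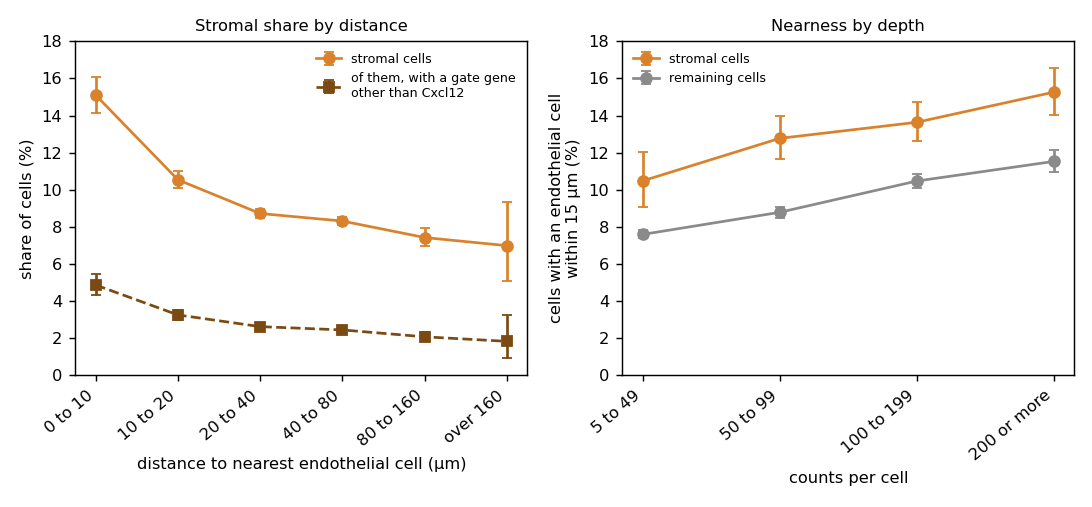
Left, share of stromal cells in percent among cells that are not endothelial, by distance from the nearest endothelial cell in µm, for all stromal cells and for those with a gate gene other than Cxcl12; right, share of stromal and of remaining cells with an endothelial cell within 15 µm, by counts per cell. Bars are exact binomial 95% intervals, the left share goes from 15.1% to 6.99%, and the stromal points lie above the remaining points in every band on the right.

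Remaining cells were split by their distance to gated cells, with 11235 within 15 µm of an endothelial cell, 81820 as near to a stromal cell only and 34151 farther from both. The junction and surface list, outside the gates, stood at 3263, 2066 and 2073 CPM in these sets. The endothelial gate genes, which also defined the groups, stood at 682, 281 and 184 CPM. The neutrophil list stood at 38606, 60018 and 62756 CPM and the megakaryocyte list at 15548, 11969 and 15226. Cell outlines meet in tissue, and the part of transcripts from neighbors in these values was not tested.

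The tissue lay in 6 pieces of at least 2000 cells, joined where cells were within 40 µm, and every piece held both kinds of cell. Endothelial cells made up between 0.418% and 1.08% of a piece and stromal cells between 7.38% and 10.6%. The summed junction genes were between 4.07 and 7.50-fold higher in endothelial than in remaining cells of the same piece, and the summed reticular genes were between 3.62 and 5.25-fold higher in stromal cells. Stromal cells had an endothelial cell within 15 µm more often than remaining cells in 6 of 6 pieces. In 47 squares of 500 µm with at least 200 cells, the endothelial share ran from 0% to 2.07% and the stromal share from 5.62% to 13.7%. Pieces of 1 section are not replicates.

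The E13.5 fetal liver section had been imaged in the same run on the same panel, and the same gates found 451 endothelial cells (8.58% of 5254) and 316 stromal cells (6.01%) there. Liver cells were deeper, with a median of 190 counts against 60, and of 332 in endothelial and 377 in stromal cells. The gates take deeper cells, so these shares are not a comparison of abundance. Organ, age and section cannot be told apart in this pair, so the levels stand side by side. Of the 6 sinusoidal genes, Lyve1 stood at 45.9 CPM in marrow and 3005 in liver endothelial cells and Mrc1 at 882 and 1014. The other 4 had the higher level in marrow, Gpm6a at 653 and 66.2, Fcgr2b at 1086 and 11.0, Il6st at 1856 and 342 and Flt4 at 1846 and 987. The endothelin receptor gene Ednrb stood at 5.10 and 651. The selectin gene Sele stood at 785 in marrow and had no count in liver, Selp stood at 765 and 5.51, and Lipg at 2030 and 16.5. Plvap and Egfl7 were high in both, at 3111 and 1483 and at 2825 and 2332. The arterial connexin gene Gja5 stood at 25.5 and 546. Liver levels of Selp, Fcgr2b and Lipg rest on 1, 2 and 3 counts, and the marrow level of Ednrb on 1.

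Stromal cells of both sections were set side by side in the same way. Among the genes that chose them, Cxcl12 stood at 18650 CPM in marrow and 2917 in liver, Lepr at 1579 and 14.1, Pdgfra at 274 and 1180 and Lum at 78.7 and 2062. Outside the gate, Ebf3 stood at 606 and 14.1, Kitl at 1024 and 233 and Col1a1 at 414 and 3411. Adipoq, Cxcl14 and Ibsp stood at 630, 1218 and 893 in marrow and had no count in the liver cells. The liver level of Ebf3 rests on 2 counts, and the equal level of Lepr on as many. The exact interval of a gene with no count there reaches 26.1 CPM. The P8 marrow had been measured in another run on 477 genes, which held 6 of the gate genes, Kdr, Tie1, Clec14a, Pdgfra, Pdgfrb and Lum. Gates cut to these found 9.50% endothelial and 14.7% stromal cells there and 0.279% and 0.318% in the 89-week section. The paper names femurs as the source of the P8 marrow, whereas the aged marrow had been separated from bone before embedding. Panel, run, tissue preparation and age cannot be told apart in that pair.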

How the data were processed

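Transcripts were measured in place with Xenium on a 5 µm section of fixed 89-week marrow. The authors deposited raw transcript counts for each cell and gene, not normalized, with cell positions and areas. The run description names Xenium Onboard Analysis 3.1.0.4, whereas the paper names Space Ranger. The panel held 5006 predesigned and 44 custom genes. Elongation was the ratio of the long to the short axis of the deposited cell and nucleus outlines. The panel description was not used, and the E14.5 liver and both spleen sections were read only for cell names and numbers of cells. The members and the gene lists were chosen with earlier results of these data known.

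Cells with at least 5 detected genes were kept, as in the study's methods. Counts were summed over the cells of each group and divided by the group's total over all genes outside the gates, per 1000000 (CPM). A ratio was computed for genes with at least 50 counts in both groups together, was called at 2-fold or more, and has an exact conditional binomial 95% interval. Levels have exact Poisson and shares exact Clopper-Pearson intervals. A gene at 0 took a floor of 3 counts over the group. With 1 section there was no test, no replicate and no p-value. Named were the gate genes and the 15 largest folds per comparison with an interval wholly above 2. Also named were the lowest folds with an interval wholly below 0.5, 10 against remaining cells and 15 in endothelial over stromal cells. Up to 5 genes per narrower set and members of 24 gene lists with their extremes were named too. Other list members were added for their known roles after their values were seen. Thinning drew 50 counts per cell without replacement at a fixed seed. Distances ran between cell centers. Doublets were not called, and a segmented cell can hold transcripts of its neighbors. The ratio script was tested on simulated data. Python 3.11.15, numpy 2.4.6, pandas 2.3.3, scipy 1.17.1 and matplotlib 3.10.9 were used. Promoters came from a RefSeq table, in which 8 gate genes had an entry.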

Additional observations from a re-analysis of the deposited data

How the results depend on the processing

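Of 120 folds given in the text, recomputed under each alternative in 1341 pairs of fold and setting, 1332 kept their direction. The exceptions were Vwf and Pf4 in endothelial over remaining cells, main values 2.45 and 2.80. They stood at 0.179 and 0.578 after thinning to 50 counts, at 0.186 and 0.320 without gated cells of 10 or more megakaryocyte counts, and Vwf at 0.685 in gated cells with under 10% blood transcripts. In endothelial over stromal cells Vwf, 2.85 in the main setting, stood at 0.287 thinned and 0.996 without megakaryocyte-rich cells. Remaining cells kept their own megakaryocyte-rich cells in that setting, and with these left out too Vwf stood at 0.768 and Pf4 at 1.13. Across the 2-fold line moved 32 pairs of 10 genes, these 2 and Kitl (1.17 without stromal counts), Nrp2 (1.21 thinned), Lyve1 (1.75 with few blood transcripts), Cxcr4 and Mki67 (0.996 and 0.644 in counts per cell, and Cxcr4 0.522 without stromal counts), Sost (0.617 at 3 counts, 0.863 in counts per cell and 0.509 without megakaryocyte-rich cells), Plin1 (1.39 with another gate gene) and, in endothelial over stromal cells, Vcam1 (1.19 without Cxcl12) and Kitl (0.511 in counts per cell). The 3-count threshold left 337 endothelial and 6095 stromal cells, and thinning 232 and 4250. Without Cxcl12, 1143 stromal cells remained, with 735 genes higher than in remaining cells, 171 higher in endothelial than stromal cells and 148 the other way. Endothelial cells with no stromal count numbered 401, with 443 genes higher in stromal cells than in them and 357 the other way. Under 10% blood transcripts left 6597 stromal cells. Requiring a gate gene beside Cxcl12 left 3727. Thinning gave 105 genes higher in endothelial than stromal cells and 201 the other way. Counts per cell, which keep the depth of deeper cells, moved the median over all genes to 2.49-fold for endothelial and 1.92-fold for stromal over remaining cells and gave 2436, 1705 and, for stromal over endothelial, 148 genes higher. A minimum of 200 counts per gene gave 491 of 3008, 241 of 3103, and 162 and 157 of 2089 genes measured. Fewer genes were measured, and a smaller share of them was called than in the main setting. Genes lower in stromal than remaining cells, 44 in the main setting, came to 210 without Cxcl12, 198 with few blood transcripts, 196 with another gate gene, 147 thinned, 105 at 3 counts, 92 without megakaryocyte-rich cells, 7 in counts per cell and 2 at 200 counts per gene, and those lower in endothelial cells from 360 to 60 in counts per cell. The share of stromal cells near an endothelial cell came to 5.79% at 3 counts, 14.96% without Cxcl12, 3.79% thinned, 5.20% with exclusive gates, 6.48% at 10 µm, 30.1% at 25 µm, 12.7% without megakaryocyte-rich cells and 14.03% with another gate gene, above that of remaining cells each time (2.91%, 9.19%, 2.45%, 3.87%, 3.57%, 24.3%, 8.29% and 9.11%). Leaving out megakaryocyte-rich cells, in the gates or in every group, and asking for another gate gene were chosen after seeing the data. A minimum of 20 counts per cell moved none of these counts and shares beyond 1.5 times or their interval. Remaining cells with no gate count moved neither count of genes higher than in remaining cells that far, but raised 65 of 96 folds above their main interval, with a median ratio to the main fold of 1.42. Beyond their interval lay also 96 of 120 folds in counts per cell, 63 of 94 thinned, 63 of 118 with few blood transcripts, 56 of 116 without Cxcl12, 52 of 114 at 3 counts, 36 of 117 with another gate gene, 18 of 115 without stromal counts and 15 of 120 without megakaryocyte-rich cells in the gates (10 of 120 without them in any group), reversed folds aside. The single section, its depth of 60 counts per cell and the share of Cxcl12 in the stromal gate limit all values.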
